A study of Homo sapiens with 30 samples.

Results

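RWPE-ERG/mAKT cells, which carry the ETS transcription factor ERG and a constitutively active AKT together, were compared with RWPE1-vector cells by RNA-seq. FPKM counts the sequenced fragments of a gene, scaled to the length of its transcript and to the mapped fragments of the library. Genes were included where the deposited FPKM was at least 1 in either line, and 12394 of the 26255 genes listed met this rule. Of these, 11716 reached 1 FPKM in both lines, 281 in vector cells only and 397 in ERG/mAKT cells only. RWPE1 is an immortalized line of normal prostate epithelium grown in keratinocyte medium with EGF and bovine pituitary extract. Vector cells received both empty retroviruses, pQCXIH and pBabe-puro. ERG/mAKT cells received pQCXIH-ERG, with FLAG-tagged ERG of UniProt isoform 1, and pBabe-Puro-Myr-AKT, whose AKT is held at the membrane by a myristoyl anchor. ERG cells (pQCXIH-ERG with pBabe-Puro) and mAKT cells (PQCXIH with pBabe-Puro-Myr-AKT) are shown beside them. All lines were selected with hygromycin and puromycin, and the labels do not say that any of them is a single clone. A further label gives pLHCX, not pQCXIH, as the backbone of ERG. Each line was sequenced as 3 libraries, and the table holds 1 value per gene and line, pooled over them. No difference between lines was therefore tested, no value has an error, and the depth of the libraries is unknown. A 2-fold ratio was used as the threshold for counting genes. Where only a pair of levels is given, vector comes first and ERG/mAKT second.

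In prostate cancer, a fusion of the androgen-driven TMPRSS2 promoter to ERG switches on a factor that prostate epithelium does not normally express, and tumors with the fusion often have active PI3K/AKT signaling. ERG binds DNA at the sequence GGAA and can activate or repress genes, while AKT is a kinase that promotes growth and survival and keeps FOXO factors out of the nucleus. The comparison asks which genes differ when both are present at once. Levels in bulk RNA cannot tell a change in RNA per cell from a change in the share of cells that make it.

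The transduced genes followed the labels. ERG, on chromosome 21, was at 0.264 FPKM in vector, 358 in ERG, 0.435 in mAKT and 328 in ERG/mAKT cells. AKT1, on chromosome 14, was at 58.7 FPKM in vector, 64.2 in ERG, 156 in mAKT and 281 in ERG/mAKT cells, so ERG/mAKT cells had 4.79 times the AKT1 level of vector cells and 1.80 times that of mAKT cells. ERG was at a similar level in both lines that received it, whereas AKT1 was not, and a gene that is higher in ERG/mAKT than in mAKT cells cannot be told apart from one that follows the higher AKT1 level. The values of ERG and AKT1 add the transgene to the cells' own gene. AKT2, a related kinase, was at 28.5 and 26.6 FPKM. A2ML1, a protease inhibitor of stratified epithelia, was at 0.103 FPKM in vector, 0.0501 in ERG, 1.66 in mAKT and 2.88 in ERG/mAKT cells. ETV5, an ETS factor whose transcription follows ERK signaling, was at 13.6 FPKM in vector, 12.5 in ERG, 12.3 in mAKT and 4.42 in ERG/mAKT cells. Both lines had the keratins of prostate epithelium. Of the markers of other cell types, 2 of 16 endothelial, 2 of 10 fibroblast, 2 of 14 immune and 1 of 9 neuroendocrine genes reached 1 FPKM, and none of these was past 2-fold. Defining markers were near 0, with PECAM1 at 0.0158 and 0.0253 FPKM, PTPRC at 0 and 0.00382 FPKM, DCN at 0.0154 and 0.0102 FPKM and CHGA at 0.0576 and 0.107 FPKM. The summed level of the immune list was 29.7 FPKM in vector and 26.2 in ERG/mAKT cells, almost all of it CD68, at 28.3 and 24.3 FPKM. The summed levels of the endothelial, fibroblast and neuroendocrine lists were 29.4 and 33.9, 24.3 and 32.4, and 4.21 and 5.28 FPKM.

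Of the 12394 genes, 510 (4.11%) were at least 2-fold higher and 247 (1.99%) at least 2-fold lower in ERG/mAKT than in vector cells. The median log2 ratio was −0.07, and the middle 90% of genes lay between −0.61 and 0.83. Small RNA genes, taken by symbol (microRNAs and small nucleolar, Cajal body, nuclear and cytoplasmic RNAs, but not the SNAR and vault RNA genes), made up 403 of the genes but 187 of those higher and 53 of those lower. They are poorly measured in polyA-selected libraries, and 105 of the 110 genes listed at 0 in one line, which count as past 2-fold without a ratio, were small RNA genes. Without them, 323 of 11991 genes (2.69%) were higher and 194 (1.62%) lower, and these shares serve as the background for the gene lists below. Most of these genes were not abundant. The higher genes had a median of 1.00 FPKM in vector and 3.71 in ERG/mAKT cells, the lower genes 3.75 and 1.14. At least 10 FPKM was reached in the higher of both lines by 78 of the higher and 49 of the lower genes. The split between directions depended on the scaling. Among all genes past 2-fold, 67.4% were higher as deposited and 54.0% after both lines were rescaled to the same FPKM sum, which moved every log2 ratio by −0.18. Small RNA genes weigh on that sum. It was 845240.0 in vector and 958974 in ERG/mAKT cells with them, and 627157 and 595189 without them.

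**Figure D1:**
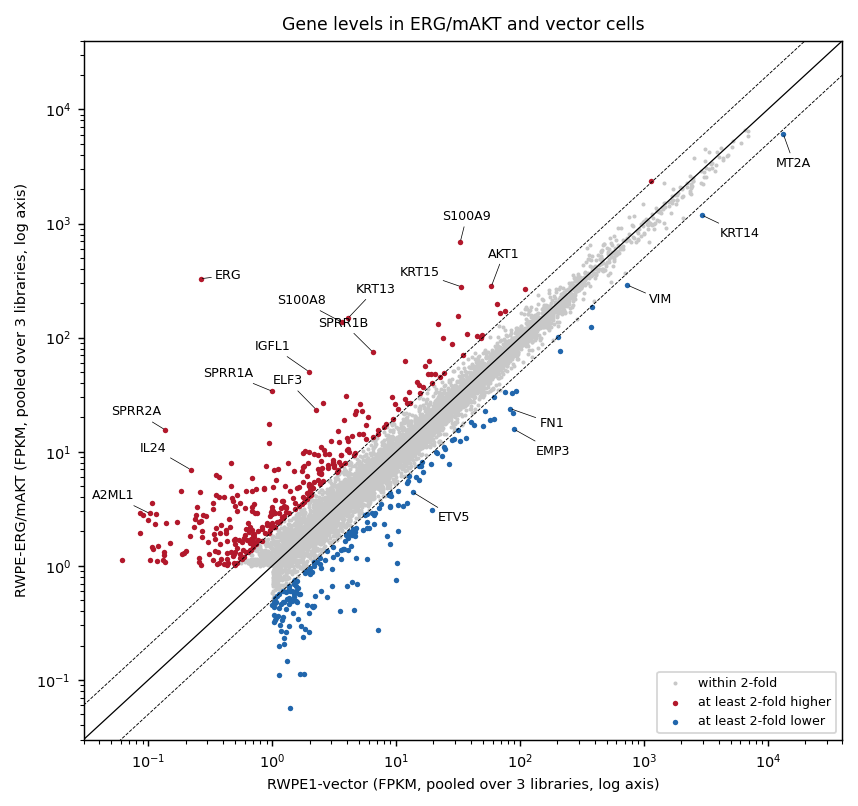
Each point is a gene without small RNA genes and without genes listed at 0, with its FPKM in vector cells on the horizontal and in ERG/mAKT cells on the vertical log axis; the solid line marks equal levels and the dashed lines 2-fold. ERG, S100A9, S100A8, KRT13 and the SPRR genes are among those far above the line, and most points lie between the dashed lines.

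Under the limits of 5 FPKM in the higher and 0.5 FPKM in the lower line, the 12 largest ratios above 1 were those of S100A8, KRT13, SPRR1A, IGFL1, S100A9, RAB26, LCN2, SPRR1B, ELF3, SNAR-F, SULT2B1 and KRT15. S100A8 and S100A9 encode the subunits of calprotectin, a secreted calcium-binding complex of inflamed epithelium and neutrophils. S100A9 (GRCh37 chr1:153330330-153333499) was at 33.0 FPKM in vector, 38.4 in ERG, 51.6 in mAKT and 691 in ERG/mAKT cells. S100A8 was at 3.64 FPKM in vector, 1.6 in ERG, 13.9 in mAKT and 137 in ERG/mAKT cells. Under the same limits these also stood farthest above the other 3 lines, with S100A9 13.4-fold and S100A8 9.83-fold above the next line. LCN2, a protein that binds bacterial siderophores, was at 0.945 FPKM in vector, 2.27 in ERG, 2.09 in mAKT and 12 in ERG/mAKT cells, which is 5.29-fold above the next line. ELF3, an ETS factor of epithelial cells, was at 2.26 FPKM in vector, 5.81 in ERG, 5.57 in mAKT and 23.4 in ERG/mAKT cells, 4.03-fold above the next line. TNFSF10, the death ligand TRAIL, was at 1.04 FPKM in vector, 1.21 in ERG, 1.96 in mAKT and 6.96 in ERG/mAKT cells, 3.54-fold above the next line. Without small RNA genes, 89 of 11991 genes (0.742%) were at least 2-fold above each of the other 3 lines in ERG/mAKT cells and 47 (0.392%) at least 2-fold below each of them.

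Among the other genes of the 12, several had a line with a single transgene close to ERG/mAKT cells. KRT13, a keratin of suprabasal cells, was at 4.10 FPKM in vector, 9.76 in ERG, 111 in mAKT and 148 in ERG/mAKT cells, so that mAKT cells held most of the difference. IGFL1, a secreted IGF-like protein, was at 1.97 FPKM in vector, 44.5 in ERG, 4.27 in mAKT and 50.4 in ERG/mAKT cells, with ERG cells near ERG/mAKT cells. RAB26, a small GTPase of secretory vesicles, was at 0.948 FPKM in vector, 1.68 in ERG, 8.65 in mAKT and 17.6 in ERG/mAKT cells. SULT2B1, which sulfates cholesterol in the outer epidermis, was at 0.683 FPKM in vector, 1.82 in ERG, 3.07 in mAKT and 5.87 in ERG/mAKT cells. SNAR-F, a small noncoding RNA of a family of near-identical copies, was at 2.57 FPKM in vector, 4.59 in ERG, 10.2 in mAKT and 26.7 in ERG/mAKT cells, and reads may be split between copies. KRT15, a keratin of basal cells, was at 33.3 FPKM in vector, 80.3 in ERG, 53.8 in mAKT and 279.7 in ERG/mAKT cells, 3.48-fold above the next line. In every one of the 12 genes the ERG/mAKT level was the highest of the 4 lines. They were chosen by their ratio to vector, so a level above vector was given, and the choice favors a high ERG/mAKT level.

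**Figure D2:**
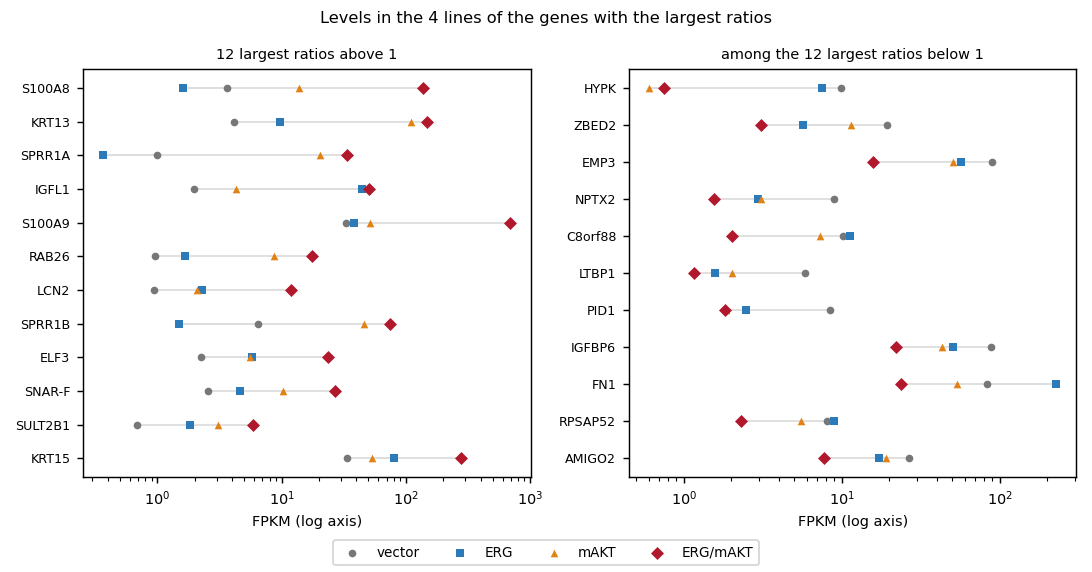
Levels in vector, ERG, mAKT and ERG/mAKT cells (FPKM, log axis, 1 pooled value per line) of the 12 genes with the largest ratios of ERG/mAKT over vector above 1 (left) and of genes among the 12 largest below 1 (right). The ERG/mAKT level is the highest of the 4 in every gene on the left and the lowest in every gene on the right but HYPK, where mAKT cells are slightly lower. The place of ERG/mAKT relative to vector cells follows from the choice of genes.

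The cornified envelope is the protein shell that keratinocytes build as they leave the basal layer. Of 37 genes of this list, 21 reached 1 FPKM, 12 were at least 2-fold higher, 0 were lower and the median log2 ratio was 1.21, against −0.07 over all genes. Of the genes that reached 1 FPKM, 10 did so in ERG/mAKT cells alone, and of the 11 with at least 1 FPKM in vector cells 2 were higher. With a minimum of 5 FPKM in either line, 5 of 12 were higher. The small proline-rich proteins, which crosslink the envelope, led the list. SPRR1B was at 6.47 FPKM in vector, 1.48 in ERG, 45.9 in mAKT and 74.8 in ERG/mAKT cells. SPRR1A was at 1.000 FPKM in vector, 0.367 in ERG, 20.3 in mAKT and 33.9 in ERG/mAKT cells. SPRR2A was at 0.137 FPKM in vector, 0.0997 in ERG, 1.93 in mAKT and 15.6 in ERG/mAKT cells, 8.06-fold above the next line. The 3 other genes of this family that passed, SPRR2D, SPRR2E and SPRR3, had from 0.0849 to 0.35 FPKM in vector cells and between 1.92 and 6.30 FPKM in ERG/mAKT cells. IVL, or involucrin, an early envelope scaffold, was at 0.26 FPKM in vector, 0.791 in ERG, 1.64 in mAKT and 4.43 in ERG/mAKT cells. CALML5 and CALML3, calmodulin-like proteins of the epidermis, had 0.182 and 4.55 FPKM, and 44.6 and 103 FPKM. In SPRR1A, SPRR1B, SPRR2A, SPRR2E, SPRR3, CALML5 and CALML3 the ERG line was below vector and the mAKT line above it, and the ERG/mAKT level was above all of them. Some enzymes and scaffolds of the envelope were within 2-fold: TGM1, the crosslinking transglutaminase, had 4.4 and 5.03 FPKM, EVPL 9.48 and 12 FPKM and PPL 37 and 38.2 FPKM. ECM1 had the largest ratio below 1 of the list, with 12 and 6.12 FPKM and a log2 ratio of −0.97.

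Many of these genes are neighbors. The epidermal differentiation complex on chromosome 1, taken here from S100A10 to S100A1 (GRCh37 chr1:151955391-153604515), holds 64 of the listed genes apart from small RNAs, of which 20 reached 1 FPKM. Of these, 10 were at least 2-fold higher and 0 lower, and the 10 were IVL, 6 SPRR genes and 3 S100 genes. Of the 10, 7 were under 1 FPKM in vector cells, so that they reached the minimum through ERG/mAKT cells alone. Of the 3, S100A7 or psoriasin was listed at 0 in vector and ERG cells and at 0.192 FPKM in mAKT and 2.43 in ERG/mAKT cells. The S100 genes toward both ends of the complex were within 2-fold: S100A10, S100A11, S100A6 and S100A13 had log2 ratios of −0.22, −0.07, −0.10 and −0.30. In the kallikrein cluster on chromosome 19 (chr19:51322402-51587502), which encodes secreted serine proteases, 5 of 6 expressed genes were higher, 4 of which were under 1 FPKM in vector cells. KLK10 had 0.259 and 2.43 FPKM, KLK7 0.108 and 1.45 FPKM, KLK8 1.77 and 7.38 FPKM and KLK6 0.452 and 2.2 FPKM, while KLK9 had 1.03 and 1.00 FPKM. KLK5 was highest in mAKT cells, at 0.70 FPKM in vector, 0.348 in ERG, 3.87 in mAKT and 1.46 in ERG/mAKT cells. In the SERPINB cluster on chromosome 18, 2 of 6 expressed genes were higher, SERPINB13 (2.00 and 9.87 FPKM) and SERPINB7 (1.02 and 3.02 FPKM). The list of serpins and kallikreins as a whole had 7 of 14 higher, 0 lower and a median log2 ratio of 0.73, with 5 that passed through ERG/mAKT cells alone and 2 higher at a minimum of 5 FPKM. In the S100 family 4 of 15 were higher, 0 lower and the median log2 ratio was 0.11 (−0.08 after rescaling), the fourth being S100P, at 1.12 FPKM in vector, 2.00 in ERG, 2.23 in mAKT and 7.02 in ERG/mAKT cells.

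The promoters of SPRR genes are known for AP-1 sites, which bind FOS and JUN proteins. The letters TGANTCA, which read the same on both strands, were searched in the 250 bases before the start of each gene in RefSeq (GRCh38.p14). They stood in 5 of the 10 promoters found for the 12 higher envelope genes and in 2 of 5 found for the 9 others. The share was 3.87% of 9043 promoters of the genes compared and 6.6% of all 27305 promoters. As the motif was chosen for the SPRR genes, a share above that of all genes was given in advance. Within the list, 50% and 40% of so few promoters do not set the higher genes apart. The 3 genes of highest ratio with such a match are shown as the stretch around it, 5′ to 3′ on the gene's strand, with the match in capitals.
SPRR2A (chr1:153057673-153057739, minus strand): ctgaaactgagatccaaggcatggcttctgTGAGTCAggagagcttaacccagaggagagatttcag
SPRR1A (chr1:152983943-152984009, plus strand): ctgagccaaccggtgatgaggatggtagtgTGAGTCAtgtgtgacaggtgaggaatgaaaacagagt
SPRR3 (chr1:153001549-153001615, plus strand): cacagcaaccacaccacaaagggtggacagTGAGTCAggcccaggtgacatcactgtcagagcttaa
The match lies 191 to 197 bases before the start of SPRR2A, 102 to 108 before that of SPRR1A and 164 to 170 before that of SPRR3, and reads TGAGTCA in each. A match of letters does not show that a factor binds there. Of the 12 AP-1 subunits with at least 1 FPKM, 2 were past 2-fold, both higher, among them ATF3 (9.46 and 19.5 FPKM), a stress-induced factor. After rescaling to the same sum 1 was higher and 1 lower. JUNB had 111 and 112 FPKM and JUN 44.8 and 36.3 FPKM, and FOSL1, which ERG cells had at 200.3 FPKM, had 119 and 78.1 FPKM.

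Keratins form the intermediate filaments of epithelia and mark its layers. Among keratins of suprabasal and stressed cells, 5 of the 7 with at least 1 FPKM were higher and 0 lower, with a median log2 ratio of 2.1, and 2 of them passed through ERG/mAKT cells alone. After KRT13 came KRT16, induced in activated keratinocytes, at 28.1 FPKM in vector, 7.25 in ERG, 50.5 in mAKT and 87.4 in ERG/mAKT cells. KRT6B was at 5.26 FPKM in vector, 6.15 in ERG, 14.2 in mAKT and 22.6 in ERG/mAKT cells. KRT4, the partner of KRT13, had 0.266 and 2.45 FPKM and KRT6C 0.349 and 4.15 FPKM. KRT6 genes are near-identical copies, and reads may be shared between them. Basal markers differed among themselves. Of 19 basal genes, 1 was higher, 4 were lower and the median log2 ratio was −0.21. TP63, the master factor of basal cells, was at 36.3 FPKM in vector, 21.3 in ERG, 39.2 in mAKT and 38.0 in ERG/mAKT cells. KRT5, the basal keratin, was at 3126 FPKM in vector, 1169.8 in ERG, 3642 in mAKT and 3519 in ERG/mAKT cells. Its partner KRT14 was at 2936 FPKM in vector, 699.5 in ERG, 2527 in mAKT and 1185 in ERG/mAKT cells, so ERG/mAKT cells had slightly more KRT5 than vector cells but were 2.48-fold lower in KRT14. Other lower basal genes belong to the hemidesmosome, which anchors basal cells to their matrix. COL17A1, a hemidesmosomal collagen, was at 209.5 FPKM in vector, 79.4 in ERG, 169.8 in mAKT and 76.8 in ERG/mAKT cells. ITGB4, the integrin of the hemidesmosome, was at 379 FPKM in vector, 283 in ERG, 339 in mAKT and 186 in ERG/mAKT cells. LAMA3 and LAMB3, chains of laminin-332, had log2 ratios of −0.48 and −0.21. On chromosome 17, 3 of 7 expressed keratins of the type I cluster were higher and 1 lower, so neighbors lay in opposite directions there: KRT15 and KRT16 had log2 ratios of 3.07 and 1.64, and KRT14, which lies between them, −1.31.

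Luminal cells are the secretory cells of the prostate, and the androgen-driven kallikreins KLK2 and KLK3 are among the genes that define them. Of 32 luminal genes, 17 reached 1 FPKM, 9 were higher, 0 were lower and the median log2 ratio was 1.04. Of the 17, 2 passed through ERG/mAKT cells alone, and of the 15 with at least 1 FPKM in vector cells 7 were higher. At a minimum of 5 FPKM 5 of 10 were higher. These kallikreins were not among them. KLK2, KLK3, CD38 and ELF5 were listed at 0 in all 4 lines, and TMPRSS2 was at 0.00426 and 0.0536 FPKM. FOXA1, a pioneer factor of luminal cells, was at 3.24 FPKM in vector, 4.66 in ERG, 3.28 in mAKT and 3.19 in ERG/mAKT cells. KRT18 and KRT8, luminal keratins, were highest in ERG cells. KRT8 was at 622 FPKM in vector, 1769 in ERG, 671 in mAKT and 921 in ERG/mAKT cells and KRT18 at 817 FPKM in vector, 1843 in ERG, 987 in mAKT and 958 in ERG/mAKT cells. The higher genes were mostly surface proteins and factors that other epithelia also have. CD24, a surface sialoprotein, was at 18.3 FPKM in vector, 31.1 in ERG, 32.6 in mAKT and 63.0 in ERG/mAKT cells. GATA2 and GATA3, zinc finger factors of luminal cells, had 1.19 and 3.68 FPKM, and 1.52 and 3.12 FPKM, GATA3 being highest in ERG cells (5.10 FPKM). PSCA, an anchored surface antigen, was at 2.50 FPKM in vector, 5.68 in ERG, 5.36 in mAKT and 7.18 in ERG/mAKT cells. LY6D, of the same protein family, had 0.470 and 3.95 FPKM, STEAP4, a metalloreductase, 0.0617 and 1.12 FPKM and CLDN4 8.23 and 17.6 FPKM. ELF3, described above, was higher too. The luminal list is not independent of the epidermal genes: LY6D and ELF3 are also made by differentiating keratinocytes.

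Junction genes hold epithelial cells together. The adherens and tight junction list also holds factors that are not parts of junctions, among them GRHL1, GRHL3 and OVOL1. Of its 25 genes with at least 1 FPKM, 7 were higher, these factors among them. No gene was lower and the median log2 ratio was 0.29. Of the 25, 4 passed through ERG/mAKT cells alone, and 3 were higher at a minimum of 5 FPKM. CLDN1, a tight junction claudin, was at 5.11 FPKM in vector, 13.3 in ERG, 10.7 in mAKT and 26.3 in ERG/mAKT cells. GRHL3, a factor of the epidermal barrier, was at 0.743 FPKM in vector, 0.511 in ERG, 1.29 in mAKT and 4.70 in ERG/mAKT cells, and its relative GRHL1 had 1.76 and 5.42 FPKM. OVOL1, a repressor of mesenchymal genes, had 0.422 and 1.92 FPKM, PVRL4 (nectin-4) 0.522 and 4.18 FPKM and CGN (cingulin) 0.977 and 2.96 FPKM. CDH1, or E-cadherin, had 33.7 and 44.9 FPKM and CTNNB1 73.9 and 75.0 FPKM. Of 10 desmosome genes, 0 were past 2-fold, and DSP, the plakin that ties keratins to the junction, had the largest log2 ratio, 0.58.

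Several mesenchymal genes, which epithelium gains when it loses its character, were lower. Of 23 with at least 1 FPKM, 8 were lower, 1 was higher and the median log2 ratio was −0.54, with 5 lower at a minimum of 5 FPKM. Of the 23, 4 passed through vector cells alone and 1 through ERG/mAKT cells alone. Of the 19 with at least 1 FPKM in ERG/mAKT cells, 5 were lower. FN1, or fibronectin, a matrix protein (GRCh37 chr2:216225163-216300796), was at 83.7 FPKM in vector, 228 in ERG, 53.4 in mAKT and 23.8 in ERG/mAKT cells. VIM, or vimentin, the intermediate filament of mesenchymal cells, was at 737 FPKM in vector, 1056 in ERG, 366 in mAKT and 288 in ERG/mAKT cells. CDH2, or N-cadherin, was at 3.04 FPKM in vector, 7.38 in ERG, 0.610 in mAKT and 0.666 in ERG/mAKT cells. In these and in SPARC the ERG line was above vector and both lines with active AKT were below it. SPARC, a matrix glycoprotein, was at 31.6 FPKM in vector, 67.5 in ERG, 12.2 in mAKT and 15.4 in ERG/mAKT cells. CDH11, another mesenchymal cadherin, was at 3.51 FPKM in vector, 1.44 in ERG, 0.757 in mAKT and 0.401 in ERG/mAKT cells, TNC, or tenascin C, at 24.9 FPKM in vector, 15.3 in ERG, 11.4 in mAKT and 10.5 in ERG/mAKT cells, and MMP2, a gelatinase, had 1.59 and 0.481 FPKM. For CDH2, MMP2, SPARC and TNC, ERG/mAKT cells were close to mAKT cells. SNAI2, or SLUG, the most abundant of the listed EMT factors, was at 68.5 FPKM in vector, 55.9 in ERG, 54.9 in mAKT and 35.0 in ERG/mAKT cells, and AXL, a receptor kinase, was at 34.5 FPKM in vector, 82.4 in ERG, 29.3 in mAKT and 17.8 in ERG/mAKT cells, both short of 2-fold. SNAI1 was the exception, with 0.591 and 1.77 FPKM. TPM1, FSTL1 and IGFBP7 had log2 ratios above 0, of 0.74, 0.71 and 0.39.

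Adhesion and matrix genes outside that list had several members lower and few higher. Of 12 integrins, 3 were lower, 0 higher and the median log2 ratio was −0.43. ITGB5 was at 36.4 FPKM in vector, 24.1 in ERG, 24.3 in mAKT and 13.1 in ERG/mAKT cells and ITGA4 had 2.50 and 0.600 FPKM. ITGA6, the partner of ITGB4, was at 125 FPKM in vector, 70.9 in ERG, 116 in mAKT and 67.2 in ERG/mAKT cells, a log2 ratio of −0.90. Among plasminogen activators, matrix metalloproteinases and their inhibitors, 5 of 16 were lower and 0 higher, but 2 were lower with a pseudocount of 1 FPKM and 3 with ratios centred on their median. TIMP1, an inhibitor of metalloproteinases, was at 203 FPKM in vector, 206 in ERG, 163 in mAKT and 102 in ERG/mAKT cells, just past the threshold, and SERPINE2, a protease nexin, at 32.6 FPKM in vector, 30.1 in ERG, 22.0 in mAKT and 12.4 in ERG/mAKT cells. PLAU, or urokinase, a known target of ERG, was at 23.6 FPKM in vector, 32.6 in ERG, 30.4 in mAKT and 26.9 in ERG/mAKT cells. Of 15 collagens, 1 was lower (COL17A1) and 0 higher. In a list of 16 genes known to be raised by ERG in prostate, 1 of 11 was higher, ARHGDIB, and 1 lower, VIM. ARHGDIB, an inhibitor of small GTPases, was at 23.8 FPKM in vector, 81.1 in ERG, 40.4 in mAKT and 99.7 in ERG/mAKT cells. ADAM19 and CTGF were 6.99 and 24.1 FPKM in ERG cells but 1.15 and 5.54 in ERG/mAKT cells, against 1.38 and 10.2 in vector cells.

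**Figure D3:**
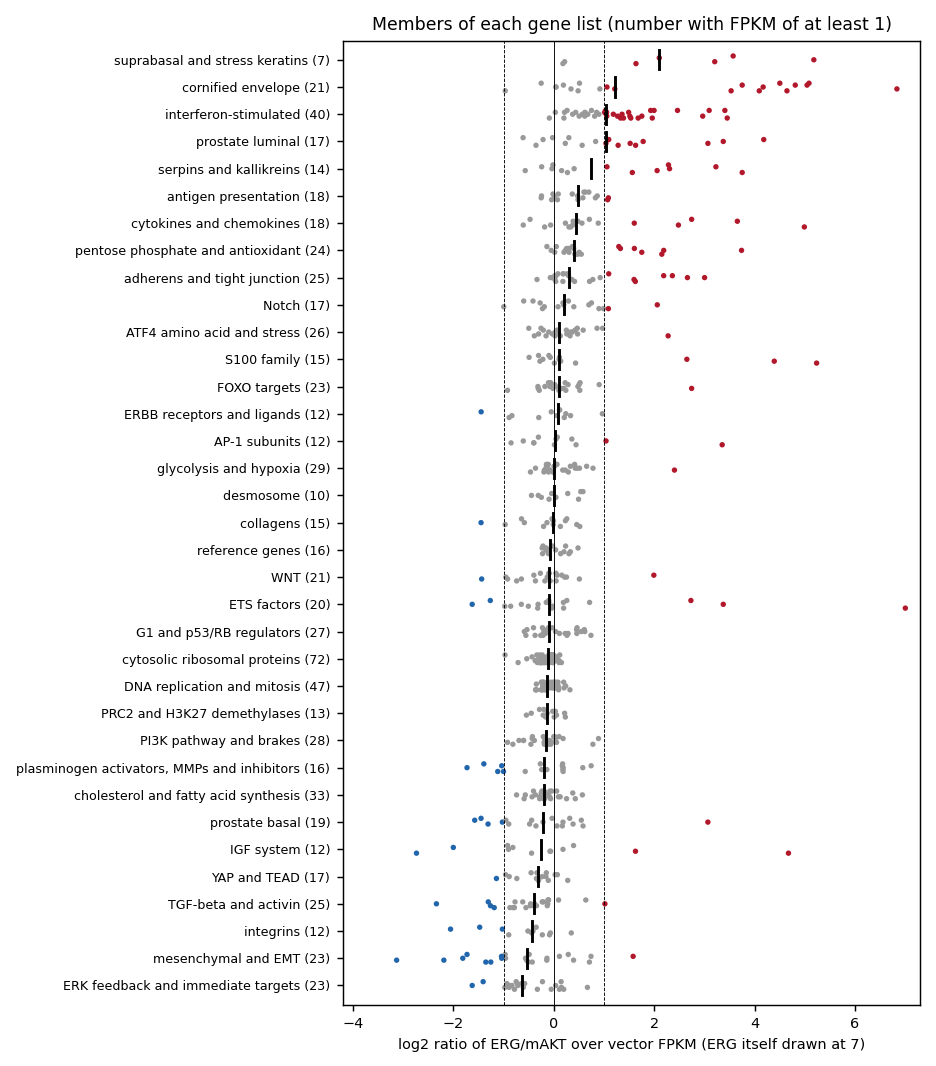
Each point is a list member with an FPKM of at least 1 in either line, placed by its log2 ratio of ERG/mAKT over vector; thick bars are list medians, dashed lines mark 2-fold, and S100A7, listed at 0 in vector cells, is not drawn, while ERG is drawn at 7. Suprabasal keratins, the cornified envelope, interferon-stimulated and luminal genes have the highest medians, and the ERK and mesenchymal lists the lowest.

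ERK feedback genes and immediate targets of the Ras/ERK pathway report on its activity. Of 23 such genes, 2 were at least 2-fold lower and 0 higher, but 17 had a ratio below 1 and the median log2 ratio was −0.64, the lowest of the 41 lists. With both lines rescaled to the same sum, on which small RNA genes weigh, 7 were lower. Centring on the median or a pseudocount of 1 FPKM left 2 lower, as did a minimum of 5 FPKM, which 22 genes met. DUSP6, the phosphatase that inactivates ERK, was at 86.2 FPKM in vector, 59.6 in ERG, 74.8 in mAKT and 32.5 in ERG/mAKT cells. ETV5 was 3.08-fold lower and its relative ETV4, also driven by ERK, was at 23.6 FPKM in vector, 24.3 in ERG, 22.6 in mAKT and 12 in ERG/mAKT cells, a log2 ratio of −0.97. SPRY4, an inhibitor of receptor signaling, was at 9.90 FPKM in vector, 8.66 in ERG, 10.1 in mAKT and 5.18 in ERG/mAKT cells. DUSP4, DUSP5, SPRED1, SPRED2 and SPRY2, other feedback inhibitors, had log2 ratios of −0.89, −0.72, −0.75, −0.78 and −0.72. In ETV4, ETV5 and SPRY4 the lines with a single transgene were close to vector cells. Other immediate targets lay nearer to a ratio of 1: EGR1 had 24.3 and 23.4 FPKM, CCND1 55.3 and 56.7 FPKM, MYC 181 and 154 FPKM, IER3 110.3 and 122 FPKM and DUSP1 50.4 and 57.8 FPKM. EPHA2, a receptor kinase, had a log2 ratio of −0.64, FOSL1 −0.61 and PHLDA1 −0.58. SPRY1 had the largest log2 ratio above 0, 0.67. The EGF-type ligands AREG and EREG, which act upstream of ERK, had log2 ratios of −0.89 and −0.83. NRG1, the ligand of ERBB3 and ERBB4, was the one gene past 2-fold among 12 ERBB receptors and ligands, at 8.87 FPKM in vector, 5.47 in ERG, 8.73 in mAKT and 3.25 in ERG/mAKT cells. EGFR was at 57.1 FPKM in vector, 32.4 in ERG, 55.4 in mAKT and 46.4 in ERG/mAKT cells and ERBB2 at 16.2 and 16.9 FPKM.

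ETS factors compete for the same GGAA core. Of 20 ETS genes with at least 1 FPKM, 3 were higher, 2 lower and the median log2 ratio was −0.10. Apart from ERG and ELF3, ETV7, an interferon-responsive repressor, was higher, with 0.269 FPKM in vector, 0.638 in ERG, 0.515 in mAKT and 1.79 in ERG/mAKT cells. ETV1 was lower, with 1.44 and 0.600 FPKM, as was ETV5. ETS1 was at 21.0 FPKM in vector, 25.0 in ERG, 20.7 in mAKT and 13.5 in ERG/mAKT cells and ELK3 at 22.1 FPKM in vector, 19.8 in ERG, 18 in mAKT and 12.2 in ERG/mAKT cells, with log2 ratios of −0.65 and −0.86. FLI1, the nearest relative of ERG, had 2.27 and 1.6 FPKM, and ETS2, GABPA, ELF1 and EHF had log2 ratios of 0.19, −0.10, 0.20 and 0.26. In level, no other ETS gene came near the transduced ERG: the next in ERG/mAKT cells was ERF, a repressor, with 56.3 FPKM.

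**Figure D4:**
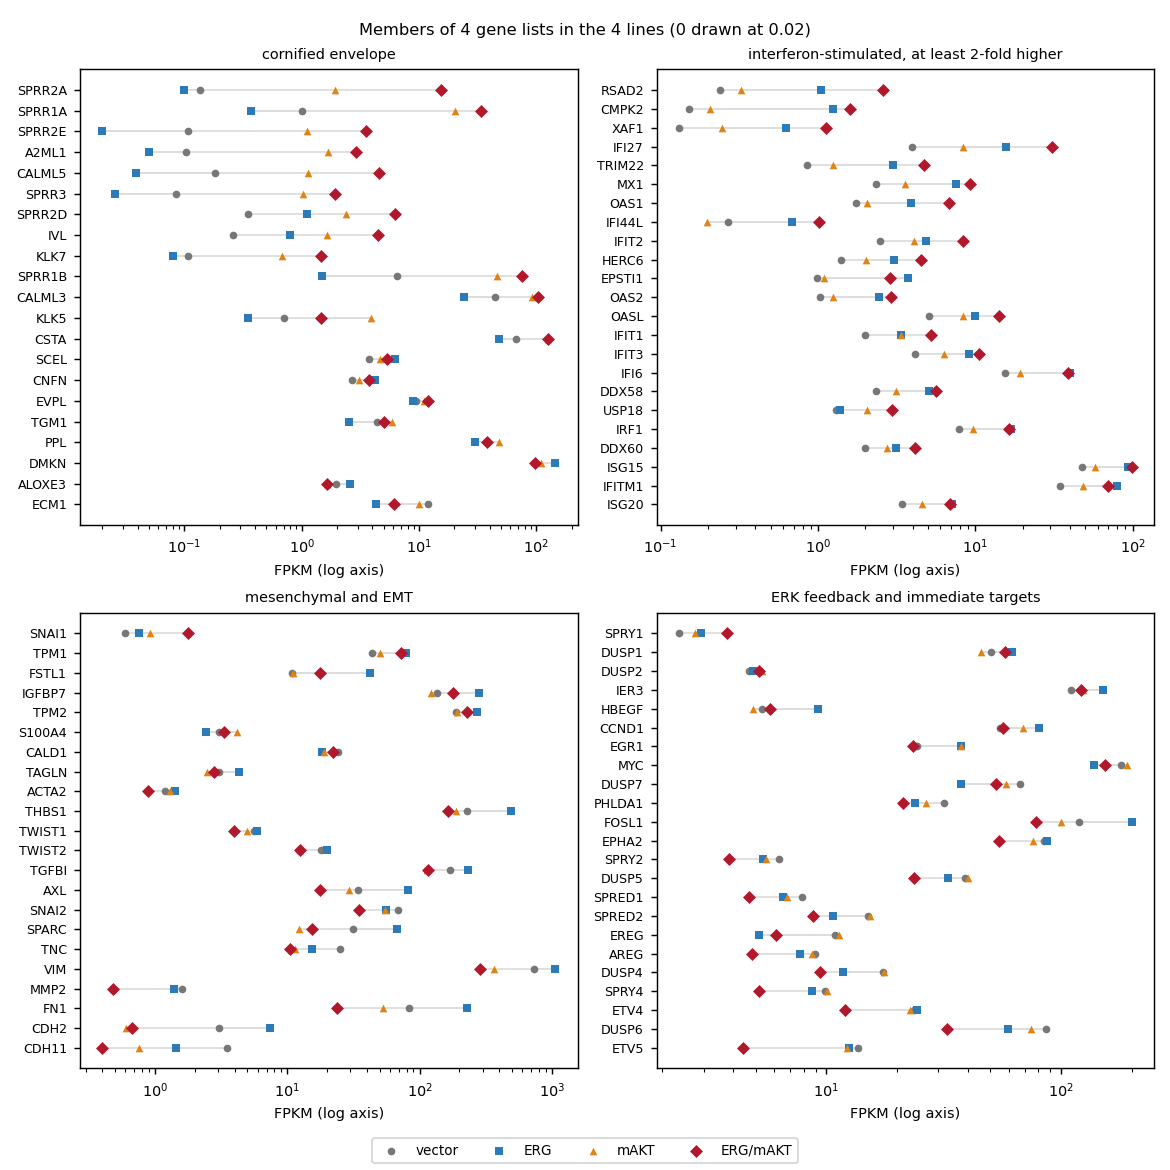
Levels in vector, ERG, mAKT and ERG/mAKT cells (FPKM, log axis, 1 pooled value per line) of members of the cornified envelope, mesenchymal and ERK lists with at least 1 FPKM, 1 mesenchymal gene left out, and of the interferon-stimulated genes at least 2-fold higher. In most envelope genes at the top ERG cells lie lowest, in most interferon genes ERG cells lie above mAKT cells, and in most ERK genes ERG/mAKT cells lie lowest.

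Interferon-stimulated genes are switched on through STAT and IRF factors when cells sense interferon or foreign nucleic acid. Of 40 with at least 1 FPKM, 23 were at least 2-fold higher, 0 lower and 39 had a ratio above 1, with a median log2 ratio of 1.05. This count was 18 after rescaling to the same sum, 14 with a pseudocount of 1 FPKM and 13 of 27 at a minimum of 5 FPKM. Of the 34 with at least 1 FPKM in vector cells, 17 were higher. IFI27, among the genes most responsive to interferon, was at 3.96 FPKM in vector, 15.7 in ERG, 8.34 in mAKT and 30.9 in ERG/mAKT cells. ISG15, a ubiquitin-like modifier and the most abundant of the higher genes, was at 48.0 FPKM in vector, 93.0 in ERG, 58.1 in mAKT and 98.9 in ERG/mAKT cells. MX1, a GTPase that blocks viruses, was at 2.34 FPKM in vector, 7.57 in ERG, 3.56 in mAKT and 9.32 in ERG/mAKT cells. OAS1, which makes the activator of RNase L, was at 1.74 FPKM in vector, 3.88 in ERG, 2.05 in mAKT and 6.79 in ERG/mAKT cells. RSAD2 (viperin) and CMPK2, which are neighbors on chromosome 2, had 0.237 and 2.60 FPKM, and 0.150 and 1.6 FPKM. IFI6 and IFITM1 were at 15.4 and 38.7 FPKM and at 34.4 and 70.3 FPKM, with 40.2 and 79.8 FPKM in ERG cells. Of the factors themselves, STAT2 had 4.72 and 4.44 FPKM, IRF9 8.62 and 13.2 FPKM and IRF7 8.72 and 13.7 FPKM, while IRF1, at 7.94 FPKM in vector, 16.8 in ERG, 9.74 in mAKT and 16.5 in ERG/mAKT cells, was past 2-fold. In every one of the 23 higher genes but USP18 and IFIT1, ERG cells were above mAKT cells. All 4 lines were made with retroviruses and drug selection. Antigen presentation genes had 2 of 18 higher, HLA-B (49.6 and 105 FPKM) and PSMB9 (15.6 and 32.8 FPKM), 0 lower and a median log2 ratio of 0.48. After rescaling to the same sum 0 were higher.

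The interferon-stimulated response element holds the letters GAAA 2 times with any 2 bases (NN) between, or TTTC 2 times in the same way on the other strand. They stood within 250 bases before the start in 10 of 17 promoters found for the 23 higher genes and in 10 of 14 found for the 17 list members within 2-fold, against 2.26% of promoters of the genes compared and 3.07% of all promoters. Within the list the share with the motif was no higher among the members past 2-fold. The 3 of highest ratio with a match are shown, 5′ to 3′ on the gene's strand (RefSeq, GRCh38.p14), with matches in capitals.
IFI27 (chr14:94110598-94110667, plus strand): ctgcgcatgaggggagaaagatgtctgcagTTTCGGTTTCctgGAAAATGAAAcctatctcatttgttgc
IFI44L (chr1:78620254-78620323, plus strand): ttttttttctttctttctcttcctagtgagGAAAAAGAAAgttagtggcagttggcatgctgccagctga
EPSTI1 (chr13:42992252-42992321, minus strand): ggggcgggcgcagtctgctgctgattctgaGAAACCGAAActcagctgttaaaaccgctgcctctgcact
IFI27 and IFI44L each held 2 matches in the 250 bases and EPSTI1 1, and the second match of IFI44L lies outside the stretch shown. IFI44L had 0.267 and 1.02 FPKM and EPSTI1 0.99 and 2.86 FPKM, with ERG cells at 0.686 and 3.74 FPKM.

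Of 18 cytokines and chemokines with at least 1 FPKM, 5 were higher and 0 lower, and 5 passed through ERG/mAKT cells alone. IL24, a cytokine of the IL-10 family, was at 0.220 FPKM in vector, 2.21 in ERG, 0.0996 in mAKT and 6.97 in ERG/mAKT cells. IL32 was at 0.862 FPKM in vector, 8.92 in ERG, 1.77 in mAKT and 4.82 in ERG/mAKT cells, with the highest level in ERG cells. IL1RN, the antagonist of the IL-1 receptor, was at 4.11 FPKM in vector, 2.61 in ERG, 6.02 in mAKT and 12.5 in ERG/mAKT cells, and CXCL11, an interferon-induced chemokine, had 0.119 and 1.49 FPKM. IL1B, which ERG cells had in excess, was at 46.6 FPKM in vector, 168 in ERG, 42.0 in mAKT and 44.6 in ERG/mAKT cells.

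FOXO factors are held in the cytoplasm by AKT, and their targets are known to drop when AKT is active. Of 23 FOXO targets, 1 was past 2-fold, TNFSF10, which was higher, and the median log2 ratio was 0.10 (−0.08 after rescaling). IRS2, a docking protein of insulin signaling, had the lowest ratio, at 11.6 FPKM in vector, 7.4 in ERG, 8.56 in mAKT and 6.15 in ERG/mAKT cells. KLF4 and BCL2L11 (BIM) had 6.81 and 12.7 FPKM, and 4.14 and 5.78 FPKM, and CCNG2 and TXNIP 4.96 and 5.02 FPKM, and 70.9 and 57.0 FPKM. The factors FOXO1 and FOXO3 had log2 ratios of 0.52 and 0.10. In the PI3K pathway and its brakes, 0 of 28 genes were past 2-fold. INPP5D and PIK3R3 had the largest log2 ratios, 0.89 and 0.78, and the lowest after IRS2 were those of IRS1 (−0.81) and INPP4B (−0.69), a lipid phosphatase lost in some prostate tumors.

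Among growth factor families, the IGF system had 2 of 12 higher, IGFL1 and IGFBP3, and 2 lower, IGF2 and IGFBP6. IGF2 is the growth factor and the IGFBPs bind IGFs outside the cell. IGFBP3 was at 4.44 FPKM in vector, 41.1 in ERG, 3.31 in mAKT and 13.7 in ERG/mAKT cells, and IGFBP6 at 88.1 FPKM in vector, 50.6 in ERG, 43.3 in mAKT and 22.0 in ERG/mAKT cells. IGF2 was at 1.84 FPKM in vector, 1.06 in ERG, 2.93 in mAKT and 0.277 in ERG/mAKT cells. In the TGF-beta family, 4 of 25 were lower, 1 was higher, 22 had a ratio below 1 and the median log2 ratio was −0.40. LTBP1 and LTBP2, which tether latent TGF-beta in the matrix, were at 5.84 FPKM in vector, 1.58 in ERG, 2.03 in mAKT and 1.16 in ERG/mAKT cells and at 16.4 FPKM in vector, 16.7 in ERG, 12.9 in mAKT and 6.66 in ERG/mAKT cells. BMP2 had 10.4 and 4.56 FPKM, SMAD7, an inhibitory SMAD, 2.1 and 0.875 FPKM and TGFB1 43.2 and 23.6 FPKM, a log2 ratio of −0.87. ID3, a target of BMP signaling, was the one higher, with 24.3 and 49.3 FPKM, and 0 were higher after rescaling or with a pseudocount of 1 FPKM. Of 17 Notch genes, 2 were higher, NOTCH3 and DLL1, and 0 lower, against 1 and 1 after rescaling. NOTCH3, a receptor of suprabasal cells, was at 2.98 FPKM in vector, 1.44 in ERG, 7.37 in mAKT and 12.4 in ERG/mAKT cells, and NOTCH1 was just under 2-fold, at 18 FPKM in vector, 22.3 in ERG, 22.3 in mAKT and 35.7 in ERG/mAKT cells. Its target HES1 had 17.3 and 28.2 FPKM. In WNT signaling, TCF7L1, a repressor of WNT targets, was at 2.60 FPKM in vector, 6.28 in ERG, 4.97 in mAKT and 10.4 in ERG/mAKT cells and DKK1, a secreted inhibitor, at 92.9 FPKM in vector, 67.8 in ERG, 91.5 in mAKT and 34.3 in ERG/mAKT cells, and the other 19 of 21 genes were within 2-fold. Of 17 YAP and TEAD genes, 1 was lower, NT5E, and 14 had a ratio below 1.

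Most metabolic and proliferative genes were within 2-fold, with more exceptions among antioxidant enzymes. Of 24 pentose phosphate and antioxidant genes, 7 were higher, 0 lower and 22 had a ratio above 1, with a median log2 ratio of 0.41. ALDH3A1, an aldehyde dehydrogenase of exposed epithelia, was at 3.36 FPKM in vector, 0.864 in ERG, 4.48 in mAKT and 15.3 in ERG/mAKT cells. GPX2 and GPX3, glutathione peroxidases, were at 2.16 FPKM in vector, 2.90 in ERG, 5.98 in mAKT and 9.59 in ERG/mAKT cells and at 5.97 FPKM in vector, 5.89 in ERG, 9.61 in mAKT and 20.1 in ERG/mAKT cells. AKR1B10, an aldo-keto reductase, had 0.245 and 3.27 FPKM, HMOX1, heme oxygenase, 1.22 and 3.70 FPKM and UGT1A6, whose exons overlap those of other UGT1A genes, 19 and 47.6 FPKM. AKR1C2, nearly identical to AKR1C1, was at 3.13 FPKM in vector, 0.772 in ERG, 3.33 in mAKT and 7.68 in ERG/mAKT cells. Sugar enzymes of the list were near a ratio of 1, with TALDO1, PGD and RPIA at log2 ratios of −0.05, 0.02 and −0.14. In cholesterol and fatty acid synthesis 0 of 33 genes were past 2-fold (median −0.19), in glycolysis and hypoxia 1 of 29 (EGLN3, 0.304 and 1.61 FPKM), and in the ATF4 stress response 1 of 26. That gene, GDF15, a stress-induced secreted factor, was at 4.73 FPKM in vector, 10.9 in ERG, 6.56 in mAKT and 22.9 in ERG/mAKT cells. Replication and mitosis genes had 0 of 47 past 2-fold and a median of −0.13, and G1 and p53/RB regulators 0 of 27, where CDKN1A (p21) had the largest log2 ratio, 0.74, at 73.5 FPKM in vector, 73.2 in ERG, 87.2 in mAKT and 123 in ERG/mAKT cells. Of 13 genes of the H3K27 methylase PRC2 and its demethylases and of 72 ribosomal protein genes, 0 were past 2-fold, with medians of −0.13 and −0.12. The 16 reference genes had a median of −0.07 and 0 past 2-fold.

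Among the 12 largest ratios below 1 were those of HYPK, ZBED2, EMP3, NPTX2, C8orf88, LTBP1, PID1, IGFBP6, FN1, RPSAP52 and AMIGO2. EMP3, a membrane protein of the PMP22 family and the most abundant of them in vector cells, was at 89.8 FPKM in vector, 56.6 in ERG, 50.8 in mAKT and 15.7 in ERG/mAKT cells, 3.23-fold below the next line. ZBED2, a zinc finger repressor, was at 19.5 FPKM in vector, 5.67 in ERG, 11.5 in mAKT and 3.07 in ERG/mAKT cells. C8orf88 was at 10.3 FPKM in vector, 11.3 in ERG, 7.33 in mAKT and 2.02 in ERG/mAKT cells, 3.63-fold below the next line. That was the farthest among genes with at least 5 FPKM in each of the other 3 lines and 0.5 in ERG/mAKT cells. NPTX2, a secreted pentraxin, had 8.89 and 1.56 FPKM, PID1, an adaptor that dampens insulin signaling, 8.48 and 1.82 FPKM and AMIGO2, an adhesion protein, 26.7 and 7.73 FPKM. TNFRSF6B, the decoy receptor of FAS ligand, was at 61.5 FPKM in vector, 112 in ERG, 72.6 in mAKT and 19.5 in ERG/mAKT cells, and DCBLD2, a neuropilin-like receptor, at 57.0 FPKM in vector, 51.1 in ERG, 45.6 in mAKT and 18.9 in ERG/mAKT cells. HYPK overlaps SERF2, RPSAP52 lies antisense to HMGA2 and TNFRSF6B overlaps a readthrough transcript of RTEL1, and whether counting used the strand is not given in the sources used here, so their values may hold reads of those neighbors. HYPK was the one of these genes in which ERG/mAKT cells were not the lowest, at 9.95 FPKM in vector, 7.46 in ERG, 0.605 in mAKT and 0.749 in ERG/mAKT cells. Small RNA genes as taken by symbol were set aside here, a rule that leaves SNAR and vault RNA genes in. Of the rest, 3 genes were listed at 0 in ERG/mAKT cells, led by NDN (necdin, 3.84 FPKM in vector cells). In vector cells 2 were listed at 0, VTRNA1-1, a vault RNA, and S100A7. The others at 0 in ERG/mAKT cells were SNAR-I and HHIP, at 2.75 and 1.02 FPKM in vector cells. By the difference in FPKM itself, the 5 genes that stood highest above vector were all small RNA genes, SNORD33, SNORD95, MIR6723, SNORD36A and SNORD60, led by SNORD33 with 10067 and 37657 FPKM. The 5 that stood farthest below vector were MIR6087, MT2A, KRT14, RPS29 and SNHG25. MT2A, a metallothionein that binds zinc and copper, was at 13332 FPKM in vector, 19639 in ERG, 15674 in mAKT and 6088 in ERG/mAKT cells, and is one of a family of near-identical copies.

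Other readouts of these cells bear on where ERG sits and on chromatin at the gene starts. ERG ChIP-seq of ERG/mAKT cells gave 9113 peaks from 1 library of pooled ChIPs, with a median length of 109 bp and a median fold enrichment over input of 3.53, and 450 of them had a q-value of 0.01 or below. Gene starts were the outermost 5′ ends of whole genes in GENCODE release 44 on GRCh37, the build of the peak lists. Single transcripts may start further in. In all, 10911 genes without small RNA genes were placed. Of the higher genes, 60 of 288 (20.8%, 95% Wilson interval 16.5 to 25.9%) had a peak summit within 20 kb of the start. Of the lower genes, 40 of 179 (22.3%, 95% Wilson interval 16.9 to 29.0%) had one, and of those within 2-fold 1789 of 10444 (17.1%, 95% Wilson interval 16.4 to 17.9%). These intervals of the higher and lower genes overlap that of the rest. With the peaks of q-values up to 0.01 alone, the lower genes had 9 of 179 (5.03%, 95% Wilson interval 2.67 to 9.28%) and the rest 110 of 10444 (1.05%, 95% Wilson interval 0.875 to 1.27%), which do not overlap, and the higher genes 7 of 288 (2.43%, 95% Wilson interval 1.18 to 4.93%). Intervals cover counting error only, and neighboring genes share peaks. By list, a peak lay within 20 kb of 1 of 12 higher envelope genes, 4 of 22 higher interferon genes, 3 of 5 higher suprabasal keratins and 3 of 8 lower mesenchymal genes.

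ERG peaks within 20 kb of the start of a gene named for its ratio to vector or to the other 3 lines were considered. Long peaks were left out, among them 1 near IGFL1. The 4 of highest fold enrichment among the rest are shown, on the plus strand of GRCh37. They show where ERG peaks lie beside the genes the comparison turns on. Capitals mark GGAA or, on the other strand, TTCC, the core that ETS factors read.
Peak near TNFRSF6B (chr20:62313721-62313969): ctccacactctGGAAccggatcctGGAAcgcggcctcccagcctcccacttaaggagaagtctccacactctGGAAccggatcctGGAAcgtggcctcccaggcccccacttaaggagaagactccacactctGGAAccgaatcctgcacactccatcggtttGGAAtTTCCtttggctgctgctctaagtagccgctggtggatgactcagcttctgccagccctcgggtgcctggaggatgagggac
Peak near SULT2B1 (chr19:49046561-49046705): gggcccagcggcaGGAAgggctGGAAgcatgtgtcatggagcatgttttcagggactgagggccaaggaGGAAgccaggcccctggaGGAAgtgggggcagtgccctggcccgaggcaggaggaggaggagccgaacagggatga
Peak at S100A9 (chr1:153330160-153330329, the part before the first exon): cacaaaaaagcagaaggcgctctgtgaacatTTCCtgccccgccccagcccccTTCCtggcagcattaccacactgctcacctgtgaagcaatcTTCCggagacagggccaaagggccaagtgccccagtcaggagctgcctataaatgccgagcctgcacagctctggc
Peak near KRT13 (chr17:39656525-39656667): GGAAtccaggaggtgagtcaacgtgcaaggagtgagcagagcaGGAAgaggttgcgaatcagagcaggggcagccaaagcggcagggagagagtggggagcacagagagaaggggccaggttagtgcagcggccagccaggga
The peak at S100A9 covers the start of the gene, with its summit 89 bases before it, a fold enrichment of 4.94 and a −log10 p-value of 6.53, and the stretch shown holds 3 cores. The peak near SULT2B1 lies 8771 bases before that gene and between genes, with a fold enrichment of 5.65 and 4 cores. The peak near TNFRSF6B had the highest fold enrichment, 6.36, lies 14127 bases before that gene within RTEL1, overlapping an exon of one RTEL1 transcript, and holds 7 cores, several of them in a stretch that recurs in tandem. The peak near KRT13 lies 5390 bases from its start, beyond the end of the gene, with 2 cores and a fold enrichment of 4.24. Other peaks near KRT13, KRT15, RAB26 and IGFL1 shared this fold enrichment. Only the first 2 of the 4 had a −log10 q-value over 2, that is a q-value under 0.01, with 3.65 near TNFRSF6B and 2.51 near SULT2B1. The values at S100A9 and KRT13 were 1.51 and 0.686. ELF3 and KRT15 also held ERG peaks, with the nearest summits 340 and 508 bases past their outermost starts and fold enrichments of 4.03 and 3.53. Which start these cells use was not tested. Their −log10 q-values were 0.686 and 0.155, so neither reached a q-value of 0.01.

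H3K27me3 is the repressive mark that PRC2 places. The samples hold no H3K27me3 library of ERG/mAKT cells. The regions of vector cells (labelled with pQCXIH alone) and of ERG cells were used, each from 1 library of pooled ChIPs. A region of vector cells overlapped the 1 kb to either side of the start in 61 of 288 (21.2%, 95% Wilson interval 16.9 to 26.3%) higher genes. Of the lower genes 70 of 179 (39.1%, 95% Wilson interval 32.3 to 46.4%) had one, and of those within 2-fold 1037 of 10444 (9.93%, 95% Wilson interval 9.37 to 10.5%). The mark was thus more common at genes past 2-fold in either direction, and most common at those lower with both oncogenes. With the regions of ERG cells the shares were 12.8%, 29.6% and 3.59% in the same order. The regions of vector cells cover 242 Mb and those of ERG cells 138 Mb, so the lists differ in extent. Open chromatin was less common at genes past 2-fold. An ATAC-seq region of ERG/mAKT cells lay within 1 kb of the start in 163 of 288 (56.6%, 95% Wilson interval 50.8 to 62.2%) higher genes. The number was 105 of 179 (58.7%, 95% Wilson interval 51.3 to 65.6%) for the lower genes and 8908 of 10444 (85.3%, 95% Wilson interval 84.6 to 86.0%) for the rest. Levels move with these shares: the median FPKM in the higher of both lines was 4.14 in the higher genes, 3.91 in the lower genes and 12.2 in the rest, and the part of the level in the difference was not tested. The start of ERG itself had a vector region of H3K27me3 and no ATAC region. By list, such a region lay at 3 of 8 lower mesenchymal genes (FN1, VIM and CDH11), 3 of 12 higher envelope genes and 2 of 22 higher interferon genes (IFI27 and RSAD2). ETV5, LTBP1 and NRG1 had one too. Many of these regions were weak: 116374 of the 492265 regions of vector cells had a fold enrichment of at least 2. CDH11 had a region of that strength at its start, but FN1, IFI27, ETV5, LTBP1 and NRG1 did not.

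**Figure D5:**
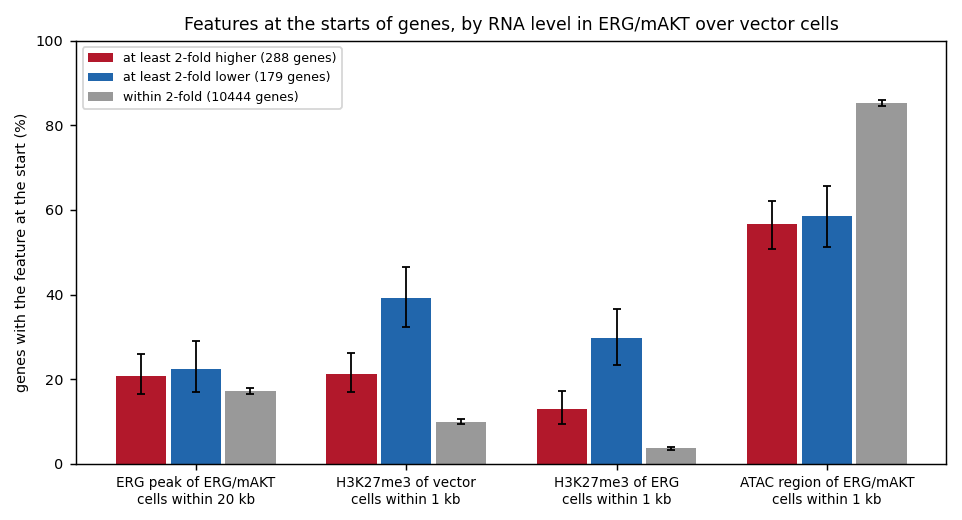
Share of genes (%) with each feature at the gene start, for genes at least 2-fold higher, at least 2-fold lower and within 2-fold in ERG/mAKT over vector cells, with 95% Wilson intervals as error bars (counting error only, 1 library per feature). H3K27me3 is most common at the lower genes, ATAC regions at the genes within 2-fold, and the shares with an ERG peak lie close together.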

How the data were processed

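RNA from RWPE1 lines was polyA-selected and sequenced as 3 libraries per line. The authors aligned reads with TopHat2 and computed FPKM with Cuffdiff, and the deposited table pairs lines and holds 1 FPKM value per gene and line, pooled over the 3 libraries. Its fold change, test statistic, p-value, q-value and significance columns hold the authors' own comparison and were not used. Library strandedness and the gene annotation are not given in the sources used here. Each deposited ChIP-seq list comes from 1 library of DNA pooled from several ChIPs, which the authors aligned to hg19 with Bowtie2, cleared of blacklisted regions and duplicates and called with MACS2 against input. Its fold enrichment ratio and −log10 p-value and q-value were used as deposited. ATAC-seq regions of ERG/mAKT cells were deposited as MACS2 calls made without input. The headers name MACS2 2.1.2 and 2.2.7.1. The ERG library held 10306483 tags and its input 14670664, the H3K27me3 libraries 19444504 (vector) and 16513053 (ERG) and their inputs 15679418 and 9675359.

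Samples were grouped by their labels. Ratios of ERG/mAKT over vector FPKM were computed with Python 3.11.15, pandas 2.3.3 and numpy 2.4.6 without a pseudocount, for genes with at least 1 FPKM in either line. Of 26255 genes, 26244 were usable. The others were symbols listed more than once, rows whose status was not usable and 1 gene whose value differed between pairings. With 1 pooled value per line the spread between libraries could not be estimated, and no p-value is given. A gene listed at 0 in one line has no ratio. Members of the 41 gene lists and the rules for naming genes were chosen with earlier results of these data known. Named were the marker genes, the 12 largest ratios each way (at least 5 FPKM in the higher and 0.5 in the lower line, no genes with symbols starting MIR, SNOR, SCARNA, RNU, RNY or RN7), the 5 largest differences in FPKM each way, the 6 genes farthest above and below the other 3 lines, members of the luminal, basal, mesenchymal, ERK, ETS, FOXO and transduced gene lists, up to 4 members of other lists each way and up to 3 genes listed at 0 in each line. Other members were named after their values were seen, as were the promoters shown. Some genes that the rules name are not reported here. Intervals for shares are 95% Wilson intervals (statsmodels 0.14.6). The counting steps were tested on simulated data. Other FPKM minimums, a pseudocount, other scalings, other peak distances and stricter peak thresholds were tried as alternatives.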

Additional observations from a re-analysis of the deposited data

How the results depend on the processing

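No paired analysis was possible because the deposited values are pooled over the 3 libraries of each line, and for the same reason no library could be left out in turn. The counts of genes past 2-fold depended on the limits. With a minimum of 5 FPKM in either line 305 genes were higher and 112 lower, and with no minimum 2728 and 1716. A pseudocount of 1 FPKM gave 370 higher and 136 lower, centring on the median 538 and 222, and rescaling to the same sum 420 and 358. Leaving out small RNA genes, which was chosen after seeing the data, gave 323 and 194. Of 142 list members and named genes past 2-fold, 118 remained so with the pseudocount, 138 after centring and 129 after rescaling. Rescaling gave 3 lower ERBB genes in place of 1, 3 lower YAP and TEAD genes in place of 1, 3 lower WNT genes in place of 1, 4 lower IGF system genes in place of 2, 4 lower ETS genes in place of 2 and 2 lower collagens in place of 1. With the pseudocount 2 of 5 lower plasminogen activator, MMP and inhibitor genes, 1 of 2 lower ETS genes and 1 of 2 higher Notch genes remained, and the single higher mesenchymal and glycolysis genes did not. No median of a list moved by over 1.5-fold with the minimum of 5 FPKM, the pseudocount, centring or rescaling. Centring and rescaling shift every log2 ratio alike and by less than that, so neither could have moved a median so far. At a minimum of 5 FPKM the median log2 ratio of serpins and kallikreins was 0.16 in place of 0.73. That of plasminogen activators, MMPs and inhibitors was 0.17 in place of −0.19. The share of higher, lower and other genes with an ERG peak was 9.03%, 6.70% and 5.88% within 5 kb and 41.0%, 41.3% and 34.9% within 50 kb, and 2.43%, 5.03% and 1.05% where only peaks with q-values up to 0.01 were taken, where the interval of the lower genes lies above that of the others. With H3K27me3 regions of at least 2-fold enrichment the shares were 5.21%, 17.9% and 2.65%. The depth of the RNA libraries is unknown, so the precision of genes near 1 FPKM is unknown too.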

Other observations

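Abundant genes outside the lists also differed by at least 2-fold between ERG/mAKT and vector cells. They were chosen after their values were seen, from those with at least 15 FPKM in the higher line. ASS1, which makes the arginine precursor argininosuccinate, was at 21.6 FPKM in vector, 39.1 in ERG, 35.6 in mAKT and 130.4 in ERG/mAKT cells. AQP3, a channel for water and glycerol in basal epithelium, was at 11.8, 4.97, 28.5 and 62.3 FPKM in the same order. Secreted proteins of epithelial defence were among them. SAA1, an acute-phase protein, was at 31.5, 165, 33.8 and 154 FPKM, with ERG cells as high as ERG/mAKT cells. SLPI and PI3, inhibitors of elastase, were at 68.6 and 37.3 FPKM in vector and at 165 and 107 FPKM in ERG/mAKT cells. CRABP2, which carries retinoic acid, was at 17.1, 20.5, 24.3 and 56.2 FPKM, and HSPB1, a small heat shock protein and the most abundant of these genes, at 1149, 889, 1610.5 and 2376 FPKM.

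Among genes lower in ERG/mAKT cells, PRSS3, a trypsin, was at 49.8, 21.6, 24.8 and 17 FPKM in vector, ERG, mAKT and ERG/mAKT cells. TFPI2, a matrix-bound protease inhibitor, was at 52.1, 42.7, 43.2 and 22.5 FPKM. PMEPA1, a target and inhibitor of TGF-beta signaling, was at 76.3, 79.3, 37.6 and 33.1 FPKM, with both lines that carry active AKT low. HTRA1, a secreted serine protease, was at 29.4, 9.74, 15.5 and 13 FPKM, lowest in ERG cells. KCNMA1, a potassium channel, was at 39.9, 29.7, 46.4 and 18.4 FPKM.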
